A study of Mus musculus with 37 samples.

Results

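The 35 BXD strains with a brown adipose tissue (BAT) array were divided by a single retroviral transcript, *Mela*, and the members of each class were chosen by its measured value. A strain was placed in the *Mela* high class when its *Mela* value lay above the midpoint of the 2 parental arrays, C57BL/6J (B6) and DBA/2J (D2), and in the *Mela* low class when it lay below. This gave 21 *Mela* high and 14 *Mela* low strains out of 35, and the classes were then compared at all other transcripts. The BXD strains are recombinant inbred lines descended from B6 and D2, so a transcript with 2 levels that match the parents can stand in for the parental allele at its locus. Each array held RNA pooled evenly from about 5 males of 1 strain, fed chow for life, fasted overnight and perfused at 29 weeks of age by the sample labels. There was 1 array per strain and no replicate within a strain, so the strains are the replicates of a class and a class value mixes allele and background. No other treatment separated the groups, and the genotypes of the strains were not analysed here.

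*Mela* is named in the array table as melanoma antigen, and it derives from an ecotropic murine leukaemia provirus, a copy of a retrovirus inherited with the host genome. Laboratory strains carry such proviruses at different places. B6 carries one on distal chromosome 8, and D2 carries one inside *Myo5a* on chromosome 9, where it causes the dilute coat colour. *Myo5a* encodes myosin Va, the actin motor that carries pigment granules in melanocytes and vesicles in other cells. Proviruses are normally held silent by a repressor complex of zinc finger proteins, TRIM28 and SETDB1 and by DNA methylation, and host restriction factors act against those that are expressed.

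*Mela* had a single probe set, and its values are given here as a description, since they chose the classes. All values are in rescaled units, which the authors set so that each array averages 8 with an SD of 2. B6 lay at 7.82 and D2 at 12.73, which set the midpoint at 10.28. In the 14 *Mela* low strains, values ran from 7.04 through a median of 7.80 to 8.36. In the 21 *Mela* high strains, they ran from 12.62 through a median of 12.88 to 15.41. The last strain below the midpoint was BXD96 at 8.36 and the first above it was BXD85 at 12.62, so 4.26 units without any strain separated the classes. No strain lay within 0.5 units of the midpoint. The 95th percentile of 1128 olfactory receptor probe sets, genes with no expected expression in fat, was 7.94 units, and 9 of the 14 low strains lay at or below it. The low level is therefore close to the array background, and no fold was computed.

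**Figure D1:**
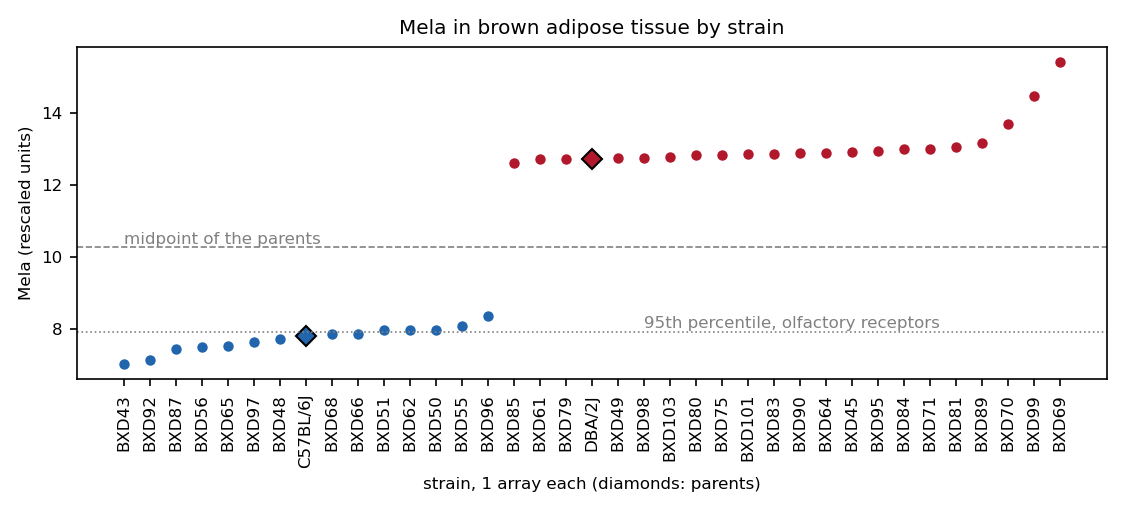
*Mela* on the arrays of 35 BXD strains (circles) and both parents (diamonds), in rescaled units and ordered by value, with *Mela* low strains in blue and *Mela* high strains in red. The low strains end at 8.36 and the high strains begin at 12.62, with B6 among the former and D2 among the latter.

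The high class itself was uneven. In 18 of its 21 strains *Mela* stayed between 12.62 and 13.18 units, with a mean of 12.87 ± 0.14 (SD, n = 18 strains), and the D2 array lay in this range. BXD70 lay above them at 13.70, BXD99 at 14.46 and BXD69 at 15.41. The low class had a mean of 7.73 ± 0.37 (SD, n = 14). These 3 strains were singled out after their values had been seen.

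The question was which other transcripts differed between strains of the 2 classes. In limma, 5 of the other 41154 probe sets passed an adjusted p of 0.05 (Benjamini-Hochberg), which is 0.0121%. Of these, *Myo5a*, *Gsta4* and *Bckdhb* were higher in *Mela* high strains, 3 of 41154 or 0.00729%. *C920006O11Rik* and *Gnb5* were lower, 2 of 41154 or 0.00486%. All 5 lie on chromosome 9 in the RefSeq annotation. An unadjusted p under 0.05 was reached by 3444 probe sets, 8.37%, of which 1539 (3.74% of all) were higher and 1905 (4.63%) lower in *Mela* high strains. The size of the difference had a median of 0.060 units and a 95th percentile of 0.24 across the array. In the Wilcoxon rank-sum test, which uses ranks alone, only *Myo5a* passed, and the adjusted p of the other 4 lay between 0.18 and 0.22.

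*Myo5a* was the transcript that separated the classes most clearly. It ran from 10.84 through a median of 11.12 to 11.42 units in *Mela* high strains and from 10.19 through 10.40 to 10.64 in *Mela* low strains. The ranges did not meet, with 0.20 units between the lowest high and the highest low strain. *Myo5a* was the only one of the 41154 probe sets, 0.00243%, at which the classes did not overlap. The mean was 11.15 ± 0.14 (SD, n = 21) in the high class and 10.41 ± 0.14 (SD, n = 14) in the low class. The difference was 0.74 ± 0.05 units (SE), with an adjusted p of 3.8e-12 in limma. The parents, which were not in the fit, lay at 10.26 in B6 and 11.17 in D2, each inside the range of the class that its *Mela* value would give. The gene had 1 probe set, so a change of the whole message and a change of the part under the probes cannot be told apart, and whether the probes read proviral sequence was not tested.

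Within the classes the relation of *Myo5a* to *Mela* was uneven. Pearson's *r* between them was -0.23 over the 21 high strains and 0.33 over the 14 low strains. Over the 18 high strains without BXD69, BXD70 and BXD99 it was 0.68, so the value over all high strains rests on those 3. In those 3 strains *Myo5a* was at 10.93, 11.12 and 11.09 respectively, within the range of the other high strains. Over the 18 high strains without those 3, *r* with *Mela* was 0.58 for *C920006O11Rik*, 0.37 for *Bckdhb*, 0.31 for *Gsta4* and 0.04 for *Gnb5*. The value for *C920006O11Rik* is positive, although this transcript was lower in *Mela* high strains. These correlations are descriptions over strains that share ancestry.

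*Gnb5*, which encodes a G protein beta subunit that partners with RGS proteins, is the second protein-coding gene after *Myo5a* in the RefSeq order. It ran from 8.95 through a median of 9.41 to 9.91 units in *Mela* high strains and from 9.46 through 9.83 to 10.09 in *Mela* low strains. The classes overlapped, and 29 of 35 strains lay on their own class's side of the midpoint between the class means. The difference was -0.38 ± 0.07 units (SE, adjusted p = 0.023 in limma), and D2 minus B6 was -0.42. This was the least stable of the 5 calls, and it missed the threshold with arrays centred on the median (adjusted p = 0.063) and with any 1 of 5 strains left out.

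*Gsta4* encodes a glutathione S-transferase that conjugates 4-hydroxynonenal and other products of lipid peroxidation, and *C920006O11Rik* is a long noncoding RNA. In the order of genes they are neighbours: *Gsta4* is protein-coding gene number 25 after *Myo5a*, and *C920006O11Rik* lies between number 24 and *Gsta4*. They moved in opposite directions.

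*Gsta4* ran from 11.77 through a median of 12.15 to 12.50 units in *Mela* high strains and from 11.09 through 11.51 to 12.26 in *Mela* low strains. High strains were mostly above the low ones, and 33 of 35 strains lay on their class's side, all but BXD80 and BXD68. The difference was 0.61 ± 0.08 units (SE, adjusted p = 1.6e-04 in limma). The parents differed by less, with B6 at 11.94 and D2 at 12.06.

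*C920006O11Rik* ran from 7.88 through a median of 8.29 to 9.31 units in *Mela* high strains and from 8.13 through 9.75 to 10.46 in *Mela* low strains. It had the largest difference of the 5, -1.31 ± 0.18 units (SE, adjusted p = 1.6e-04 in limma), and D2 minus B6 was -1.33. Here 32 of 35 strains lay on their class's side, all but BXD89, BXD68 and BXD97. BXD68 was off its side at both neighbouring transcripts.

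*Bckdhb*, gene number 56 after *Myo5a*, encodes the beta subunit of the E1 component of the branched-chain ketoacid dehydrogenase, which breaks down leucine, isoleucine and valine in mitochondria. It ran from 12.66 through a median of 13.36 to 13.58 units in *Mela* high strains and from 12.40 through 12.77 to 13.35 in *Mela* low strains. The classes overlapped, and 30 of 35 strains lay on their class's side. The difference was 0.52 ± 0.08 units (SE, adjusted p = 0.0038 in limma), and D2 minus B6 was 0.63. With the first principal component of the arrays as a covariate it missed the threshold (adjusted p = 0.10). BXD97 was off its side here as at *C920006O11Rik*. Over all probe sets the median number of strains on their class's side was 20 of 35.

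**Figure D2:**
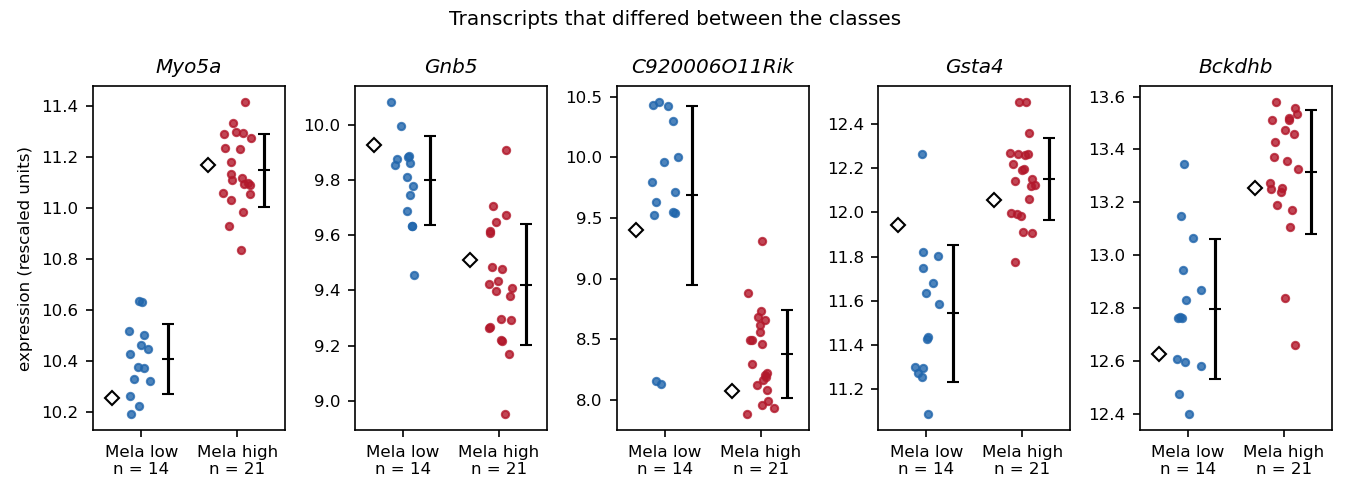
Expression of the 5 transcripts that passed an adjusted p of 0.05 (limma), in rescaled units, with 1 circle per strain, the class mean and SD beside the circles, and diamonds for B6 (beside *Mela* low) and D2 (beside *Mela* high). Only *Myo5a* has classes that do not meet, with the low strains ending at 10.64 and the high strains beginning at 10.84.

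To see how the difference ran along the chromosome, the 1161 protein-coding genes of chromosome 9 with a probe set were put in RefSeq order and counted from *Myo5a*. *Myo5a* had the lowest p of all of them. Of the 81 genes within 40 places of it, itself included, 3 passed the adjusted threshold, against 4 of 20153 genes (0.0198%) in all. The 3 were *Myo5a*, *Gnb5* and *Gsta4*. *Myo5a* became the centre after the data were seen, so its own count in this window was fixed in advance. An unadjusted p under 0.05 was reached by 17 of these 81, 21%, of which 8 were higher and 9 lower in *Mela* high strains. The share over all protein-coding genes was 8.14%.

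The share fell off with distance, though not evenly. It was 35% over the 20 genes nearest to *Myo5a* on both sides, 25% over the next 20, 10% over genes 21 to 40 and 25% over genes 41 to 80. Beyond that it was 6.88% over genes 81 to 160 and 8.21% over the remaining 840 genes. The median absolute difference was 0.094 units in the nearest 20 genes and 0.053 in the farthest bin. Of the 20 nearest genes, the 10 after *Myo5a* held 5 of the 7 with an unadjusted p under 0.05 and the 10 before it held 2. Over genes 41 to 80 the sides were closer, with 11 of 40 after *Myo5a* and 9 of 40 before it.

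Close genes were not all alike. *Myo5c*, the next gene after *Myo5a* and another class V myosin, had a mean of 9.95 units in *Mela* high and 9.94 in *Mela* low strains (difference 0.01 ± 0.10 SE, adjusted p = 0.99 in limma), although D2 minus B6 was -0.51. *Arpp19*, the gene before *Myo5a* and an inhibitor of the phosphatase PP2A, differed by 0.09 ± 0.05 units (SE, adjusted p = 0.61). *Bcl2l10*, number 3 after *Myo5a*, and *Onecut1* and *Wdr72*, numbers 2 and 3 before it, lay below the olfactory receptor limit on average and did not pass.

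Several genes a little farther along had a low unadjusted p but did not pass the adjusted threshold, and they were picked after their values had been seen. *Tmod2*, which caps actin filaments, was number 8 and lay at 8.87 units in *Mela* high and 9.14 in *Mela* low strains (difference -0.27, adjusted p = 0.26 in limma). *Lysmd2*, number 9, lay at 9.61 and 9.34 (difference 0.27, adjusted p = 0.26). *Gclc*, number 20, the catalytic subunit of the rate-limiting enzyme of glutathione synthesis, lay at 10.52 and 10.31 (difference 0.21, adjusted p = 0.32). *Myo6*, number 45, a myosin that moves towards the minus end of actin, lay at 10.28 and 10.03 (difference 0.26, adjusted p = 0.11). *Elovl4*, number 54, which elongates very long chain fatty acids and was dim here, lay at 7.19 and 7.82 (difference -0.63, adjusted p = 0.26). *Myo6* passed at an adjusted p of 0.048 when dim probe sets were left out.

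**Figure D3:**
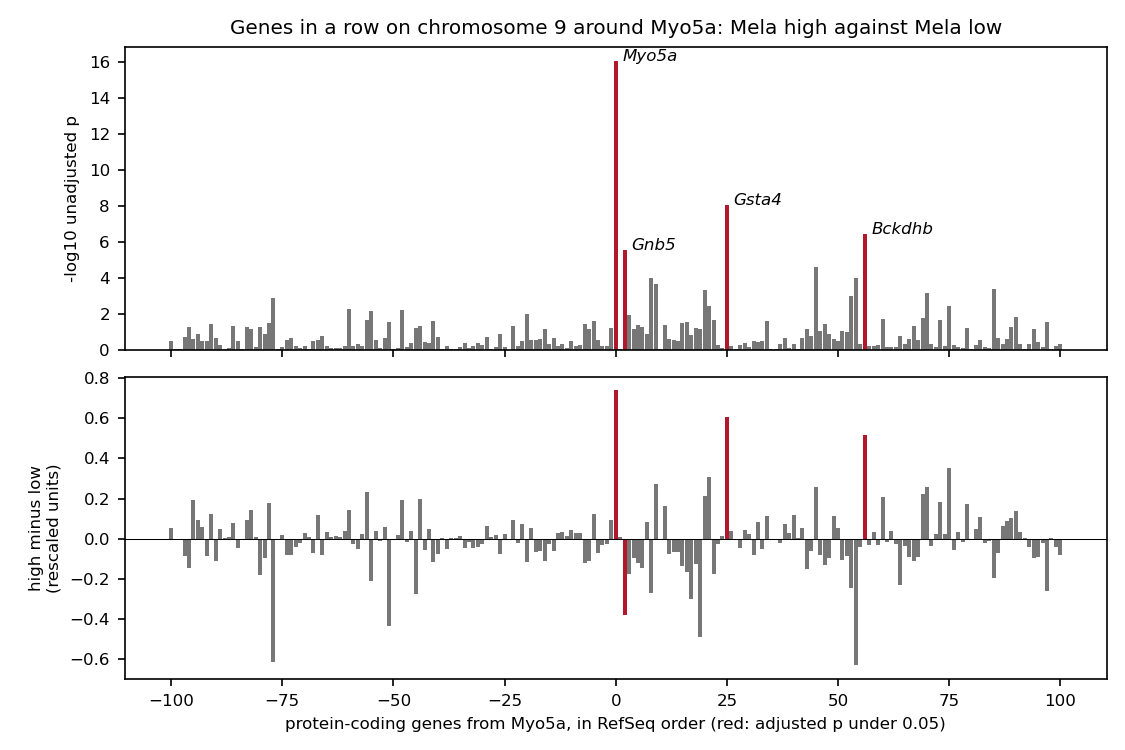
Protein-coding genes in a row on chromosome 9, counted from *Myo5a* at 0, with -log10 of the unadjusted limma p above and the difference, *Mela* high minus *Mela* low in rescaled units, below. Red marks the 4 protein-coding genes with an adjusted p under 0.05, of which *Myo5a* stands highest and *Gnb5*, *Gsta4* and *Bckdhb* lie after it at 2, 25 and 56.

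The parental arrays allow a comparison that the fit did not use. At all 5 probe sets that passed, D2 minus B6 had the same sign as *Mela* high minus *Mela* low. Of the 13 chromosome 9 probe sets with an unadjusted p under 0.001, 13 had the parental sign. These 13 include the 5 and lie on 1 chromosome, so they are not 13 separate agreements. Some had small parental differences, such as -0.02 units at *Ankrd34c* and 0.11 at *Gsta4*. The median absolute parental difference over all probe sets was 0.18. Of the 96 probe sets with an unadjusted p under 0.001 on other chromosomes or without a position, 49 had the parental sign, 51.0%. Over all 41154 probe sets it was 49.6%. Each parent had 1 array, and the D2 array also carried liver transcripts (*Alb* at 13.93 units against 8.76 in B6), whose part in the parental differences was not tested.

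Across the genome, chromosome 9 held all calls. Its share of protein-coding genes with an unadjusted p under 0.05 was 10.1%, and chromosome 4 had a similar one, 10.5%, with no gene past the adjusted threshold. On the other autosomes and the X chromosome the share was between 6.41% and 9.80%. On chromosome 8, *Mc1r*, the melanocortin receptor of pigment cells on the distal arm, lay at 7.52 units in *Mela* high and 7.62 in *Mela* low strains (difference -0.10 ± 0.07 SE, adjusted p = 0.72 in limma). *Mc1r* lay below the olfactory receptor limit on average, so its own values can show little. Of the 81 genes within 40 places of *Mc1r*, itself included, 0 passed the adjusted threshold and 7 had an unadjusted p under 0.05. This was 8.64%, against 8.14% over all protein-coding genes. All 7 were lower in *Mela* high strains.

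**Figure D4:**
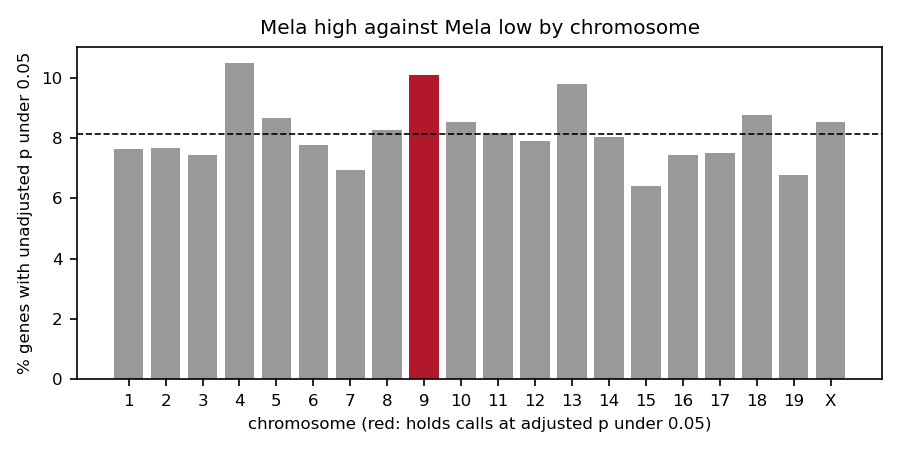
Share of protein-coding genes with an unadjusted limma p under 0.05 between *Mela* high and *Mela* low strains, in percent by chromosome, with the share over all such genes, 8.14%, as a dashed line. Chromosomes 4 (10.5%) and 9 (10.1%) are highest, and only chromosome 9, in red, holds genes past the adjusted threshold.

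Genes that act on proviruses were examined next. Of 27 measured genes of provirus silencing, 0 passed in limma, and 3 had an unadjusted p under 0.05 (*Morc2a* and *Atrx* higher, *Zfp42* lower), where the share over all probe sets was 8.37%. *Zfp42*, at 6.23 units in the high and 6.36 in the low class, lay below the olfactory receptor limit. The median difference of this list was 0.03 units, against -0.01 over all probe sets. *Trim28*, the corepressor at the centre of this machinery, lay at 10.26 units in the high and 10.23 in the low class (difference 0.03 ± 0.05 SE). *Setdb1*, its histone methyltransferase, lay at 9.63 and 9.59 (difference 0.04 ± 0.05 SE). *Zfp809*, a zinc finger protein that binds a proviral primer site, differed by 0.02 ± 0.04 units (SE).

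Among 19 measured restriction factors, 0 passed, and the median difference was 0.04 units. At an unadjusted p under 0.05, 3 were higher and 1 lower, against 3.74% and 4.63% of all probe sets. *Serinc5*, a membrane protein that lowers the infectivity of virions, lay at 10.07 units in the high and 9.87 in the low class (difference 0.20 ± 0.06 SE, adjusted p = 0.44 in limma). *Samhd1*, which degrades nucleotides, lay at 10.63 and 10.39 (difference 0.24 ± 0.09 SE, adjusted p = 0.51). *Fv1*, a capsid-binding factor with different alleles in B6 and D2, differed by -0.03 ± 0.09 units (SE), and *Apobec3*, a cytidine deaminase, by 0.14 ± 0.14 units (SE).

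Of 9 receptors of retroviruses, 0 passed, also at the unadjusted threshold, which 8.37% of all probe sets reached. *Slc7a1*, the cationic amino acid transporter through which ecotropic viruses enter cells, lay at 8.31 units in the high and 8.32 in the low class (difference -0.01 ± 0.07 SE). *Xpr1*, the receptor of xenotropic and polytropic viruses, lay at 11.06 and 11.03 (difference 0.03 ± 0.04 SE). Of 21 retroviral genes taken over by the host, *Mela* left out, 0 passed. *Syna*, a placental envelope protein, and *Ldoc1l* were lower at an unadjusted p under 0.05, against 4.63% of all probe sets. Both lay below the olfactory receptor limit on average. Most of this last list, 12 of 21, lay below the olfactory receptor limit.

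The type I interferon response, which can answer to viral nucleic acid, was also measured. Of 27 genes, 0 passed, and the median difference was 0.09 units. At an unadjusted p under 0.05, 2 were higher and 1 lower, against 3.74% and 4.63% of all probe sets. *Ddx58*, a sensor of viral RNA, lay at 10.37 units in the high and 10.21 in the low class (difference 0.17 ± 0.07 SE, adjusted p = 0.54 in limma). *Isg15*, a ubiquitin-like protein induced by interferon, had the opposite sign, at 6.93 and 7.05 (difference -0.12 ± 0.05 SE, adjusted p = 0.57). *Isg15* lay below the olfactory receptor limit on average. Of 18 pigment cell genes only *Myo5a* passed. At an unadjusted p under 0.05, 3 others were lower in *Mela* high strains, against 4.63% of all probe sets, and all 3 lay below the olfactory receptor limit. *Tyr*, an enzyme of melanin synthesis, lay at 6.42 units in the high and 6.64 in the low class (difference -0.23 ± 0.07 SE, adjusted p = 0.44 in limma). *Dct*, another such enzyme, lay at 7.69 and 7.85 (difference -0.16 ± 0.06 SE, adjusted p = 0.52). *Rab27a*, which links pigment granules to myosin Va, lay at 7.19 and 7.31 (difference -0.12 ± 0.06 SE, adjusted p = 0.58).

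Tissue markers were set beside these results. *Ucp1*, the uncoupling protein that defines brown fat, lay at 15.34 units in *Mela* high and 15.42 in *Mela* low strains (difference -0.09 ± 0.08 SE, adjusted p = 0.77 in limma). Of 15 brown fat and 10 white fat genes, 0 passed either threshold. Since 8.37% of all probe sets passed the unadjusted one, a count of 0 in lists this short says little, also for muscle below. The 14 skeletal muscle genes had a median difference of -0.44 units, with 0 past either threshold and a list mean that ran from 10.58 to 13.40 in high and from 9.90 to 13.63 in low strains. With that list as a covariate, the same 5 probe sets passed. In such pools, fewer cells of a type and less RNA per cell cannot be told apart. The list means of lymphocytes, macrophages, blood and endothelium overlapped between the classes, and 0 of their genes passed.

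The liver list differed by a median of 0.16 units and reached 11.67 in the high class, in BXD70, where *Alb* lay at 14.96 units. Without BXD70 the same 5 probe sets passed.

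The strains with the highest *Mela* were compared at unnamed probe sets, chosen after their values had been seen. One pair of unnamed probe sets carries identical values on all 37 arrays and counts as 1 measure. They lay at 13.98 units in BXD69, 12.41 in BXD99 and 11.57 in BXD70. In the other 18 high strains they lay between 10.77 and 11.56 with a median of 11.16, and in the 14 low strains between 10.58 and 11.73 with a median of 11.26. Only BXD69 and BXD99 therefore stood above all low strains, in the same order as for *Mela*. The classes as a whole differed by 0.08 ± 0.19 units (SE, adjusted p = 0.92 in limma).

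Pearson's *r* with *Mela* was 0.95 over the 21 high strains, 0.50 over the 18 without the 3 highest and 0.45 over the 14 low strains, so the first value rests on those 3 strains. The table gives this measure no gene. The other unnamed probe sets examined followed *Mela* less closely. One lay at 12.39 units in BXD69 and 11.01 in BXD99, with low strains up to 11.62. Another lay at 13.67 in BXD69 and 12.77 in BXD99, with low strains up to 13.18. At both, only BXD69 stood above all low strains. Their *r* with *Mela* was 0.64 and 0.57 over the 21 high strains. Without the 3 highest it was 0.10 and 0.15. Among named genes, *Gpnmb*, a glycoprotein of pigment cells and macrophages, was at 11.84 units in BXD69, above all other strains, but at 9.20 in BXD99 and 9.53 in BXD70, within the range of the other high strains.

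**Figure D5:**
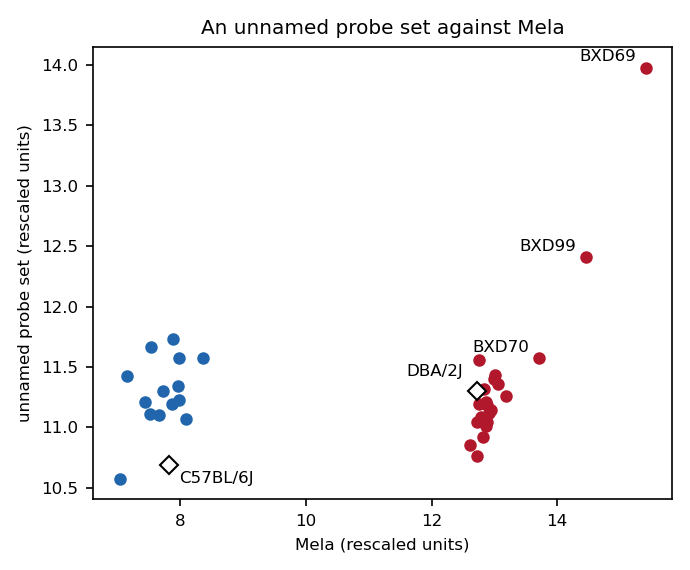
The unnamed measure of the identical pair against *Mela*, both in rescaled units. Shown are the 35 BXD strains (red, *Mela* high, and blue, *Mela* low) and both parents (diamonds). BXD69 at 13.98 and BXD99 at 12.41 stand above the remaining strains, and the 2 classes otherwise share 1 range.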

How the data were processed

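Brown adipose tissue RNA was hybridised to 1 Affymetrix MoGene 2.0 array per strain (35 BXD and 2 parental strains). The authors deposited scores: values from Affymetrix Expression Console, per the labels, rescaled so that each array averages 8 with an SD of 2. The summary method, log base and genome build are not given in the sources used here. Tests had been planned for log2 or rescaled values. Of 41345 probe sets, 190 controls were left out, and 28392 had a symbol. RefSeq (GRCm38.p6) placed 27013 on a chromosome and gave gene order only. It does not list *Mela*, the planned centre of the gene row, so *Myo5a* and *Mc1r*, already among the genes to be named, were made centres after the data were seen.

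Classes were compared with limma 3.58.1 in R 4.3.3 (lmFit, eBayes, no covariate, Benjamini-Hochberg over 41154 probe sets). Named genes were *Mela*, all called probe sets, the 3 nearest genes on each side and called list members, with others marked as picked after their values were seen or given as known examples of a list. The brightest probe set stood for a gene. The classes, their rule and the gene lists were chosen with earlier results of these data known. In simulated data for this comparison over 41154 probe sets, 94% of shifts of 2 SD and 48% of 1.5 SD were recovered, with 16 and 4 false calls. For shifts of 1 SD it was 0%. The simulated noise was normal and drawn separately for each probe set, so correlation between probe sets was left out. Recovery and false calls on the real arrays may therefore differ. Array number limits precision, and p-values measure the spread between strains, which contains array error. Python 3.11.15 was used for the rest. Alternatives covered scaling, test, samples, covariates, filter and threshold. Genotypes and other tissues were not analysed here. The result of 1 list member is not reported here.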

Additional observations from a re-analysis of the deposited data

How the results depend on the processing

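The 5 probe sets that passed were the same 5 under quantile normalization, the methods' t-test, the skeletal muscle or liver list as covariate, robust eBayes and without BXD70. The number of probe sets was 1 with the Wilcoxon rank-sum test (*Myo5a*), 3 with the first principal component as covariate, 8 with dim probe sets left out and 9 with both parents included, and the last 2 contained the original 5. The added ones were *Tmem234*, *Cd164l2* and *Myo6*, and *Tmem234* (2 probe sets), *Cd164l2* and *Dub3* respectively. Leaving out single strains gave 4 to 10 probe sets, with 8 without BXD43 or BXD61 and 10 without BXD49. The number of genes within 40 places of *Myo5a* that passed, itself included, was 3 (*Myo5a*, *Gnb5* and *Gsta4*). It was 1 with the Wilcoxon rank-sum test, which is *Myo5a* itself and none of its neighbours, and 2 to 3 without single strains. The list members that passed, 1, stayed at 1 to 1 without single strains. The parental sign was shared by every call under both other scalings. *Myo5a* passed in all runs. *Gnb5* missed the threshold with arrays centred on the median, in the Wilcoxon test, with the first principal component, without the 3 strains highest in *Mela* (an alternative chosen after seeing the data), and without BXD51, BXD55, BXD56, BXD65 or BXD68 singly (adjusted p from 0.054 to 0.073). *Bckdhb* missed it in the Wilcoxon test and with the first principal component, and *Gsta4* and *C920006O11Rik* only in the Wilcoxon test. The cause was not tested. Genes next to *Mela* itself were not run, since the gene table does not list it, and no strain lay near enough to the midpoint to be left out. No paired analysis was possible because each strain has 1 array. Array background limits what the dim transcripts can show.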

Other observations

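On chromosome 4, *Tmem234* had the largest class difference of the probe sets near the threshold, and it was singled out after its values had been seen. Of its 3 probe sets, the one with the largest difference ran from 8.26 through a median of 9.19 to 12.55 units in *Mela* high strains and from 9.53 through 12.28 to 12.92 in *Mela* low strains. The ranges overlapped widely. The difference was -2.19 ± 0.44 units (SE, adjusted p = 0.086 in limma), with B6 at 12.23 and D2 at 9.50. Below the midpoint of these parental values lay 16 of 21 *Mela* high and 2 of 14 *Mela* low strains. Another probe set of the gene had a difference of the same sign (-1.34 ± 0.28 SE, adjusted p = 0.15), and the remaining one of the opposite sign (0.39 ± 0.10 SE, adjusted p = 0.30).

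Other chromosome 4 genes with an unadjusted p under 0.001 were mostly lower in *Mela* high strains. *Cd164l2* lay at 8.46 units in the high and 8.81 in the low class (difference -0.34, adjusted p = 0.087 in limma), *Eif3i*, a translation initiation factor subunit, at 11.10 and 11.28 (difference -0.17, adjusted p = 0.36) and *Tcea3*, a transcription elongation factor, at 9.33 and 9.87 (difference -0.54, adjusted p = 0.30). *Ptp4a2*, a protein tyrosine phosphatase, was on the other side, at 11.60 and 11.38 (difference 0.22, adjusted p = 0.26). On chromosome 7, *Dub3*, a deubiquitinating enzyme that was dim here, lay at 7.53 and 7.87 (difference -0.34, adjusted p = 0.061).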
